A study of Mus musculus with 16 samples.

Results

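The genes described are the Paf1 complex and the factors that act with it in transcription elongation. They were chosen by name, and all 10 were found among the 46983 genes of the count table: Paf1, Cdc73, Ctr9, Leo1 and Rtf1 of the Paf1 complex, Supt5 and Supt6, which encode Spt5 and Spt6, Cdk9 and Ccnt1 of the kinase P-TEFb, and Hexim1, its inhibitor. All 10 passed the filter on low counts and were among the 12805 genes tested, with between 306 and 4158 reads per library.

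RNA was sequenced from mouse embryonic stem cells (ESCs) of 1 line, 46C, which carries GFP at the Sox1 locus, comes from strain 129Ola and was kept in medium with LIF. Cells were transfected for 48 hr with RAM siRNA, against the activating subunit of the mRNA cap methyltransferase, or with a non-targeting control siRNA, and both groups received cycloheximide before lysis. From each culture, RNA was taken both from the lysate before the gradient (input) and from the polysome fractions combined, which makes 4 groups of 4 libraries (input control, input RAM siRNA, polysome control and polysome RAM siRNA). These libraries came from a single RAM siRNA, so loss of RAM and other effects of that siRNA cannot be told apart in these groups, and since the cultures were pooled cells, fewer expressing cells and less RNA per cell cannot be told apart either.

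During elongation, RNA polymerase II pauses shortly after the start site, held by Spt5 with its partner Spt4 (DSIF) and by NELF. P-TEFb, the kinase Cdk9 with a T-type cyclin, phosphorylates the polymerase, Spt5 and NELF and releases the pause, while Hexim1 holds P-TEFb inactive in the 7SK particle. The Paf1 complex and Spt6 then travel with the polymerase through the gene, and the Paf1 complex is known for its part in histone H2B ubiquitination and, in ESCs, in the upkeep of the pluripotent state.

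The libraries held between 16647523 and 20147833 counts. Levels are given as CPM, the counts of a gene relative to the library total after TMM scaling over the 16 libraries. Ramac, which encodes RAM, had 10.6, 10.1, 10.7 and 11.5 CPM in the control inputs and 3.09, 2.65, 3.10 and 3.15 CPM in the RAM siRNA inputs, and its polysome levels were between 6.59 and 14.5 CPM in control and between 0.286 and 2.60 CPM in RAM siRNA. The groups did not overlap in either fraction, with the lower levels in the libraries labelled RAM siRNA. All 8 ESC markers examined were above 1 CPM, with group means from 131.9 CPM upwards. Of the markers of other lineages, T, Mesp1, Foxa2, Gata4, Cdx2, Elf5, Col1a2 and Col3a1 were below 1 CPM in every group, but others were expressed. In control input, 6 of 6 neural, 2 of 4 mesoderm, 1 of 4 endoderm, 3 of 5 fibroblast and 1 of 3 trophoblast markers reached 1 CPM, with highest means of 32.7, 14.8, 2.82, 228.7 and 25.2 CPM. The summed fibroblast markers were between 202.1 and 252.7 CPM in control inputs and between 144.9 and 190.2 CPM in RAM siRNA inputs. The sums of mesoderm (17.9 to 19.0 CPM, then 14.1 to 16.2 CPM) and trophoblast markers (24.2 to 28.5, then 15.5 to 22.6) were also lower with RAM siRNA. The endoderm sum was higher (3.58 to 4.87 CPM, then 5.54 to 6.81 CPM), and the neural sums overlapped. The summed level of the ESC markers was between 4600 and 4925 CPM in the control inputs and between 3838 and 4429 CPM in the RAM siRNA inputs, and the part of these differences in the results below was not tested.

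The 10 genes were all well expressed, over a range of about an order of magnitude when the level was divided by the length of the gene's exons. In control input, Hexim1 was highest with 25.2 ± 1.19 CPM per kilobase (SD, n = 4), above Supt5 (21.9 ± 1.93), Supt6 (20.8 ± 2.45), Ccnt1 (18.2 ± 1.03) and Paf1 (17.2 ± 1.31). Ctr9 (11.2 ± 0.472), Leo1 (10.3 ± 1.28), Cdk9 (7.86 ± 0.712) and Rtf1 (5.60 ± 0.533) followed, and Cdc73 was lowest with 2.17 ± 0.437 CPM per kilobase. The libraries of neighbours in this order overlapped for Supt5 and Supt6, Supt6 and Ccnt1, Ccnt1 and Paf1, and Ctr9 and Leo1. By exon length, Paf1 and Cdc73 stood at opposite ends of their own complex. This rests on the 17613 exon bases of Cdc73, against 3438 for Paf1. Their coding lengths are alike (1596 and 1608 bases), and without division by length they had 38.2 and 59.2 CPM in control input. Rtf1, with 2148 coding bases, had 32.1 CPM. The order depended on the length used. When the longest protein coding transcript was taken in place of all exons, Supt5 was highest (33.6 CPM per kilobase) and Cdk9 (20.9) lay close to Ctr9 (20.8), while Rtf1 (6.88) and Cdc73 (3.29) were still the lowest.

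**Figure D1:**
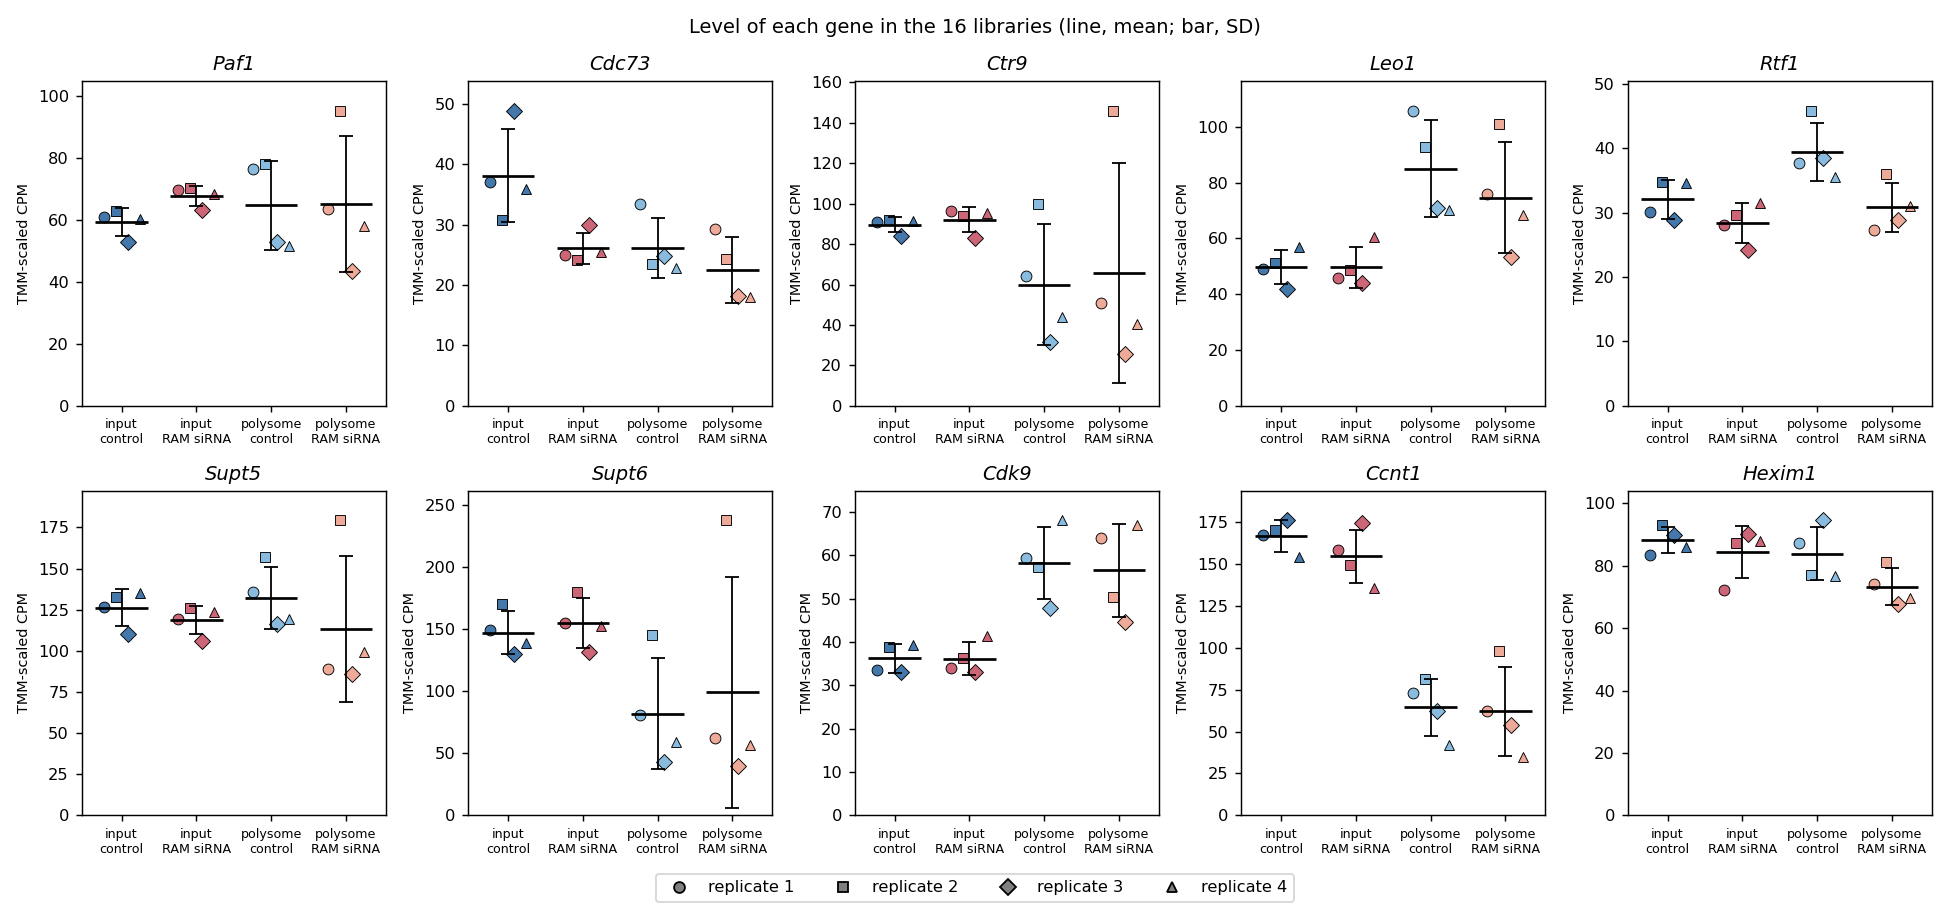
Level of each of the 10 genes (y axis, TMM-scaled CPM from 0) in the 4 groups (x axis), 1 symbol per library with its shape for the replicate number, a line for the mean and a bar for the SD over 4 libraries. In input, the libraries of Cdc73 and Paf1 separate by siRNA, and in polysomes the replicate 2 libraries of Ctr9 and Supt6 stand above the others of their groups.

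RAM siRNA and control cells were compared in input to ask which of these transcripts changed when RAM was reduced. Cdc73, a subunit of the Paf1 complex also known as parafibromin, fell to 68.5% of its control mean. Paf1, the subunit that gives the complex its name, lay at 114.4% of its control mean, and the other 8 genes lay between 88.4% and 105.1%. The study reported that components of the Paf1 complex were suppressed with RAM siRNA, without naming them in its main text. Without a factor for the replicate number, 1 of the 10 genes was called at an adjusted p under 0.05, Cdc73, against 12.9% of all genes tested (6.95% higher and 5.94% lower). With the replicate number as a block, since same-numbered libraries deviated together, 4 of the 10 were called, against 39.3% of all genes (20.3% higher and 19.0% lower). A share of 4 in 10 is close to that background. The median log2 fold change of the 10 genes was -0.03, and that of all genes tested was 0.00.

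Cdc73 had 37.0, 30.7, 48.9 and 35.9 CPM in control inputs 1 to 4 and 24.9, 24.2, 29.9 and 25.5 CPM in RAM siRNA inputs 1 to 4. The highest RAM siRNA library was under the lowest control library, the closest values being control replicate 2 and RAM siRNA replicate 3. By edgeR's quasi-likelihood test, adjusted after Benjamini and Hochberg, the change was -0.55 on the log2 scale (standard error, SE, 0.13, adjusted p = 0.0163), or -0.54 with the block (SE 0.06, adjusted p = 8e-07). The adjusted p rose to 0.0549 without RAM siRNA replicate 1 and to 0.0538 without RAM siRNA replicate 2, and the fold change was -0.40 without control replicate 3, the highest library.

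Cdc73 lies on chromosome 1 of GRCm38 from 143598800 to 143702893 on the minus strand, and 679 bases of its exons (3.86%) overlap those of B3galt2 on the other strand. Its 3′ UTR has 9721 bases, the longest of the 10 genes. For the input comparison, 7-base words in 3′ UTRs were ranked by how far the mean log2 fold change of their genes lay from that of all genes. This difference was scaled by the spread and the number of genes, and words in few genes were left out. ACTATCA (in 686 of 12050 genes with a 3′ UTR, 5.69%) ranked lowest of 15702 words, and its genes had a median of -0.12. TGCTCAA (in 1042 genes, 8.65%) ranked highest, and its genes had a median of 0.06. Genes with ACTATC, the first 6 bases of the former word, but not all 7, numbered 1107 (9.19%) and had a median of -0.04. None of the 10 genes holds ACTATCA. Cdc73 holds ACTATC 2 times and TGCTCAA 1 time, and no other of the 10 holds ACTATC or TGCTCAA. A long 3′ UTR has more places for any word, and the shares of genes given here are not matched for length. The stretches are printed 5′ to 3′ on the strand of the transcript, in GRCm38, with the word in capitals, because Cdc73 was the member that fell furthest and held words of both kinds. The words were ranked on the input comparison itself, so they are a description, and their part in the level of Cdc73 was not tested.
Cdc73, ACTATC, chr1:143607284-143607312, minus strand: agctgtttttgACTATCcaccttgtatgt
Cdc73, ACTATC, chr1:143607252-143607280, minus strand: tttcctcagtgACTATCtcttaggctatc
Cdc73, TGCTCAA, chr1:143603279-143603307, minus strand: tttttcataaaTGCTCAAtaaatatgaac

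Paf1 lay higher with RAM siRNA. It had 60.9, 63.0, 52.7 and 60.4 CPM in control inputs 1 to 4 and 69.5, 70.1, 63.1 and 68.4 CPM in RAM siRNA inputs 1 to 4. The groups did not overlap, but RAM siRNA replicate 3 stood only just above control replicate 2. At 0.19 on the log2 scale (SE 0.07), Paf1 was not called without the block (adjusted p = 0.101, edgeR) and was called with it (SE 0.05, adjusted p = 0.00181). Of the 10 genes, Cdc73 and Paf1 were those whose input groups did not overlap, against 18.0% of all genes tested. Paf1 lies on chromosome 7 from 28392951 to 28399388 on the plus strand, 54204 bases from Supt5 on the minus strand, and its 3′ UTR has 138 bases.

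The ratio of Paf1 to Cdc73 counts within a library does not depend on how libraries are scaled. It was chosen after the values were seen and is given with no test. It was 1.64, 2.05, 1.08 and 1.68 in control inputs 1 to 4 and 2.79, 2.90, 2.11 and 2.68 in RAM siRNA inputs 1 to 4, higher in RAM siRNA in each same-numbered pair and in each library of the group. In both groups replicate 3 had the lowest Paf1 and the highest Cdc73. Across the 8 input libraries, which include both siRNAs, Pearson's r between log2 levels of Paf1 and Cdc73 was -0.99. It was the lowest of the 45 pairs of members, which ranged up to 0.92 (Leo1 and Cdk9) with a median of 0.25. In the 8 polysome libraries r of Paf1 with Cdc73 was 0.52, and over all 16 libraries it was 0.06.

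**Figure D2:**
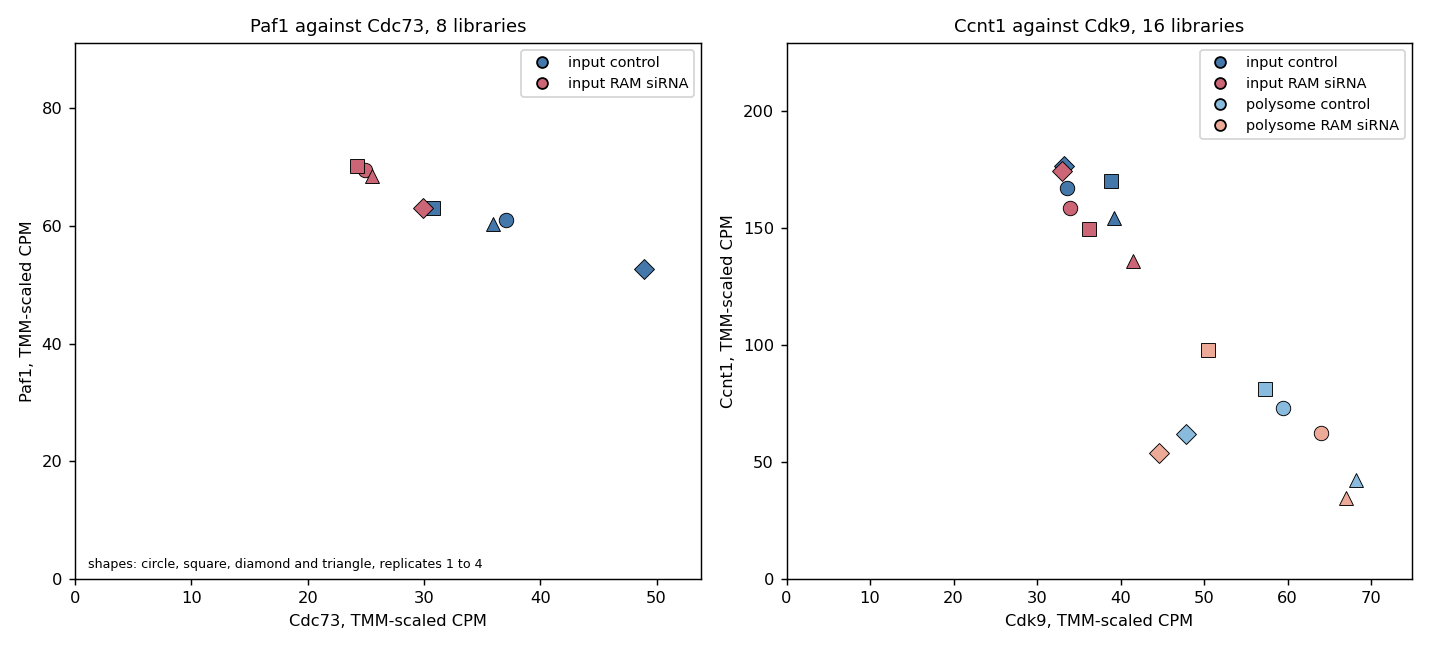
Left, Paf1 against Cdc73 in the 8 input libraries, and right, Ccnt1 against Cdk9 in all 16 libraries, in TMM-scaled CPM on axes from 0, with colours for the groups and shapes for replicates 1 to 4. RAM siRNA inputs lie at higher Paf1 and lower Cdc73, and polysome libraries lie at higher Cdk9 and lower Ccnt1 than inputs.

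Rtf1, the subunit that links the complex to H2B ubiquitination, had 30.1, 34.8, 28.8 and 34.6 CPM in control inputs and 28.1, 29.6, 24.2 and 31.5 CPM in RAM siRNA inputs. The groups overlapped, and the value was lower with RAM siRNA in 4 of 4 same-numbered pairs. Rtf1 stood at -0.18 on the log2 scale (SE 0.10, adjusted p = 0.247), and with the block it was called (SE 0.06, adjusted p = 0.0158, edgeR). Ccnt1, the T-type cyclin of P-TEFb, was lower in 4 of 4 pairs, going from 167.1, 170.2, 176.3 and 154.0 CPM in control inputs to 158.5, 149.6, 174.2 and 136.0 CPM. The Ccnt1 value of -0.11 (SE 0.09, adjusted p = 0.439) was called with the block only (-0.12, SE 0.04, adjusted p = 0.0436, edgeR), and its groups overlapped over most of their range.

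The remaining 6 genes were not called in input, with or without the block. Supt5, the large subunit of DSIF, was lower in 4 of 4 pairs with a log2 fold change of -0.09 (SE 0.04, adjusted p = 0.100 with the block). Supt6, the histone chaperone that binds the elongating polymerase, was higher in 4 of 4 pairs with 0.07 (SE 0.04, adjusted p = 0.204 with the block). Ctr9, the largest of the 5 subunits of the complex, had a log2 fold change of 0.04 (SE 0.04 with the block), Leo1 -0.01 (0.05) and Hexim1 -0.07 (0.05). Cdk9, the kinase itself, averaged 36.2 ± 3.28 CPM in control inputs and 36.2 ± 3.81 CPM with RAM siRNA (SD, n = 4 each).

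**Figure D3:**
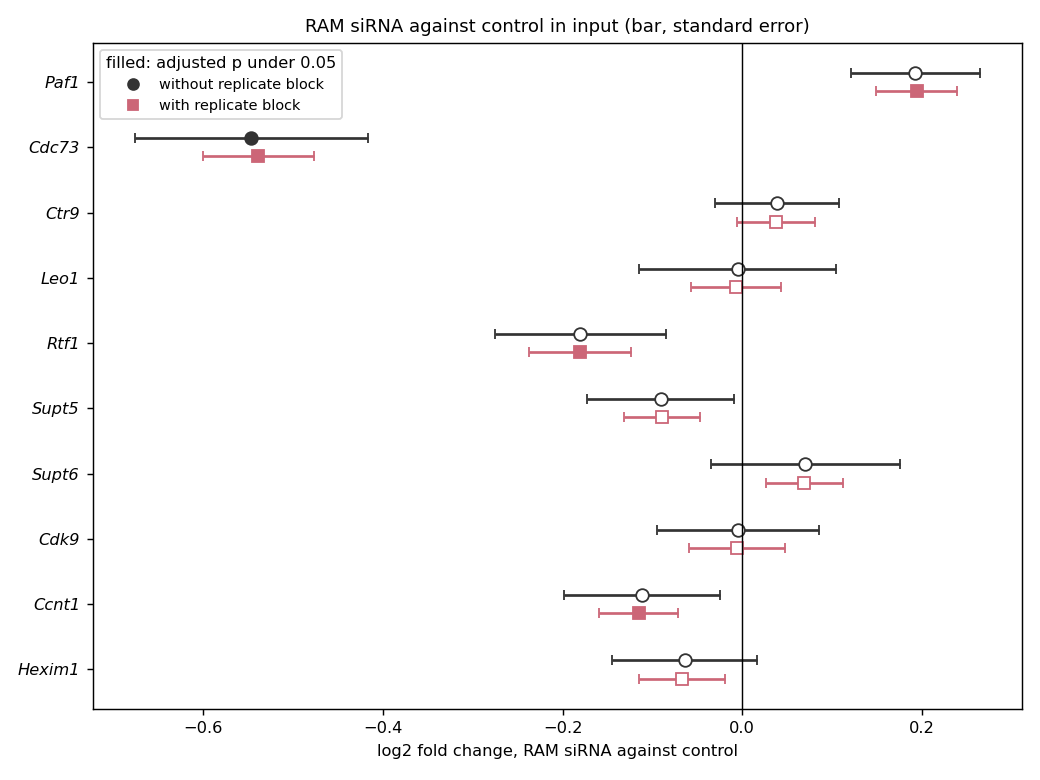
Log2 fold change of RAM siRNA against control in input (x axis) for the 10 genes (y axis), without (circles) and with (squares) a replicate block, bars for the SE and filled symbols for an adjusted p under 0.05. Cdc73 is filled in both fits at about -0.55, and Paf1, Rtf1 and Ccnt1 are filled with the block only.

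Of 41 other elongation genes, 39 passed the filter, all but Ell3 and Eaf2. In input, 0 rose and 2 fell without the block. Ell2, an elongation factor of the super elongation complex, went from between 54.8 and 59.8 CPM in control inputs down to between 38.7 and 42.8 CPM (log2 fold change -0.51, SE 0.07, adjusted p = 5.4e-04, edgeR). Mnat1, the assembly factor of the Cdk7 kinase, fell from 39.3 ± 3.68 to 28.3 ± 4.51 CPM (SD, n = 4 each, -0.47, SE 0.11, adjusted p = 0.0139), a call lost without control replicate 1 (adjusted p = 0.05002) or RAM siRNA replicate 1 (adjusted p = 0.0524). Their libraries did not overlap. With the block, 4 of the 39 rose and 10 fell, against 20.3% and 19.0% of all genes, the largest rises being Nelfcd (0.21, adjusted p = 0.0014), Eaf1 (0.19, adjusted p = 0.00173) and Eloa (0.19, adjusted p = 0.00448), and the third fall being Nelfb (-0.25, adjusted p = 0.00144). The NELF subunits Nelfcd and Nelfb thus moved in opposite directions with the block, as did Paf1 and Cdc73. The median over the 39 was -0.03 without the block. Ell2 holds ACTATCA in its 3′ UTR and Mnat1 the first 6 bases of it, and both stretches are shown, as those of genes called without the block, beside Cdc73. Genes that were not called without the block hold the words too. ACTATCA is also in Aff1 (-0.23, adjusted p = 0.155, and 6.58e-04 with the block) and Mllt3 (-0.15, adjusted p = 0.432), and ACTATC in Mllt1 (0.13, adjusted p = 0.374), Iws1 (-0.04, adjusted p = 0.834) and Wdr61 (-0.13, adjusted p = 0.500).
Ell2, ACTATCA, chr13:75772144-75772172, plus strand: cgttgatttaaACTATCActtgtcttatc
Mnat1, ACTATC, chr12:73230756-73230784, plus strand: tgatgaccctgACTATCtggagtatagca

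In polysomes, RAM siRNA was compared with control to ask whether the make-up of the transcripts engaged by ribosomes changed. Levels are relative to the library, so a change common to all transcripts in polysomes does not show here. The study itself reported a lower ratio of polysomes to monosomes (free ribosomes and ribosomal subunits) with RAM siRNA. None of the 10 genes was called without or with the block (0 and 1 at an unadjusted p under 0.05, and 0 called by DESeq2), against 0.0234% and 14.6% of all genes tested. The libraries of the groups overlapped for all 10, against 6.57% of all genes that did not overlap. Rtf1 came closest. It had 37.8, 45.8, 38.4 and 35.6 CPM in control polysomes 1 to 4 and 27.4, 36.0, 28.8 and 31.1 CPM in RAM siRNA polysomes 1 to 4. It was lower in 4 of 4 pairs, the only member that was, and the groups overlapped by a single library on either side. The difference was -0.31 on the log2 scale (SE 0.15, adjusted p = 0.620), with the block -0.31 (SE 0.11, adjusted p = 0.0645, edgeR).

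Cdc73 was lower in polysomes in 3 of 4 pairs, going from 33.4, 23.6, 24.8 and 22.8 CPM in control to 29.4, 24.4, 18.2 and 18.1 CPM. This difference of -0.17 on the log2 scale (SE 0.20) was not called (adjusted p = 0.948, and 0.341 with the block, edgeR), and Paf1, at 0.05 (SE 0.24), was higher in 2 pairs and lower in 2. Their ratio within a library was between 2.13 and 3.30 in control polysomes and between 2.16 and 3.91 in RAM siRNA polysomes, ranges that overlapped. Of the other elongation genes, 0 of 39 were called by edgeR without the block, while DESeq2 called Ell2 (-0.50, adjusted p = 8.63e-04) and Mnat1 (-0.49, adjusted p = 0.00708) as lower. With the block, 0 rose and 3 fell: Ell2 (-0.48, adjusted p = 0.006), Mnat1 (-0.47, adjusted p = 0.00767) and Nelfb (-0.38, adjusted p = 0.0311, edgeR).

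The polysome libraries differed far more among themselves than the inputs, and of the 10 genes Supt6 and Ctr9 were spread most widely. Supt6 had 80.5, 145.0, 42.9 and 58.8 CPM in control polysomes 1 to 4 and 62.0, 237.8, 39.7 and 56.6 CPM in RAM siRNA polysomes 1 to 4, against 130.1 to 180.2 CPM over the 8 inputs. Ctr9 had 64.5, 99.8, 31.7 and 44.0 CPM in control polysomes and 50.9, 146.1, 25.7 and 40.5 CPM in RAM siRNA polysomes, against 83.2 to 96.2 CPM in the inputs. In both genes and under both siRNAs, replicate 2 was highest and replicate 3 lowest. The SD of log2 CPM in RAM siRNA polysomes was 1.13 for Supt6 and 1.05 for Ctr9, against a median of 0.38 over all genes tested, and in RAM siRNA inputs it was 0.19 and 0.10. In the same polysomes the SD was 0.61 for Ccnt1, 0.50 for Supt5, 0.46 for Paf1, 0.38 for Leo1, 0.33 for Cdc73, 0.28 for Cdk9, 0.17 for Rtf1 and 0.11 for Hexim1. Across the 8 polysome libraries, which include both siRNAs, Pearson's r of Ctr9 with Supt6 was 0.99, the highest of the 45 pairs.

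RAM siRNA polysome replicate 2 had the lowest TMM factor of the 16 libraries, 0.886. Without it, the log2 fold change of RAM siRNA against control in polysomes turned from 0.31 (SE 0.57) to -0.57 for Supt6 and from 0.17 (SE 0.52) to -0.56 for Ctr9. Without control replicate 2 instead, it was 0.75 for Supt6 and 0.53 for Ctr9, and with the replicate 2 polysome libraries of both groups left out, a choice made after seeing the data, it was -0.14 and -0.20. None of these values was called, so no direction can be given for either gene in polysomes.

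Polysomes were next compared with input within each siRNA. This compares the share of each transcript in the ribosome-bound fractions with its share in the whole lysate, which includes them. RNA of polysomes and of input was purified by different methods. Purification and ribosome association therefore cannot be told apart in these comparisons. In control cells, 5 of the 10 genes were called, 2 higher and 3 lower in polysomes, against 67.4% of all genes tested (33.1% higher and 34.3% lower). In RAM siRNA cells, 3 were called, 2 higher and 1 lower, against 53.3% of all genes (27.3% higher and 25.9% lower). Calls within a complex went both ways, as they did over all genes tested. Leo1 was enriched in polysomes while Cdc73 was depleted in control cells, and Cdk9 was enriched while its cyclin was depleted. With the block, 7 of 10 were called in control cells (against 72.3% of all genes) and 4 in RAM siRNA cells (against 58.8%).

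P-TEFb showed the widest split. Cdk9 had 33.6, 38.9, 33.2 and 39.3 CPM in control inputs and 59.5, 57.3, 47.8 and 68.1 CPM in control polysomes. Ccnt1 had 73.2, 81.3, 62.0 and 42.0 CPM in control polysomes, all below the lowest control input of 154.0 CPM. Neither gene had overlapping groups, in control or in RAM siRNA cells, against 61.0% and 46.6% of all genes whose libraries did not overlap. The log2 fold change of polysomes against input in control cells was 0.64 for Cdk9 (SE 0.13, adjusted p = 9.99e-04) and -1.41 for Ccnt1 (SE 0.18, adjusted p = 3.34e-05, edgeR). With RAM siRNA it was 0.64 for Cdk9 (SE 0.17, adjusted p = 0.00808) and -1.32 for Ccnt1 (SE 0.27, adjusted p = 0.00251, edgeR).

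Within a library, Ccnt1 had 4.65 ± 0.618 times the counts of Cdk9 in control input and 1.14 ± 0.358 times in control polysomes (SD, n = 4 each). The ratio was 4.34 ± 0.851 in RAM siRNA input and 1.16 ± 0.594 in RAM siRNA polysomes. The lowest input ratio, 3.28, lay above the highest polysome ratio, 1.94, so the split does not rest on the scaling. The ratio was chosen after the values were seen. Across the 16 libraries Pearson's r between their log2 levels was -0.89, the lowest of the 45 pairs, with both fractions in the same set of points. Hexim1, the inhibitor of the kinase, stood between them, with 88.1 ± 4.17 CPM in control input and 83.9 ± 8.62 CPM in control polysomes (log2 fold change -0.11, SE 0.11) and -0.20 (SE 0.15) in RAM siRNA cells. Of the exons of Ccnt1, 695 bases (7.59%) overlap 9330020H09Rik, an antisense transcript.

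**Figure D4:**
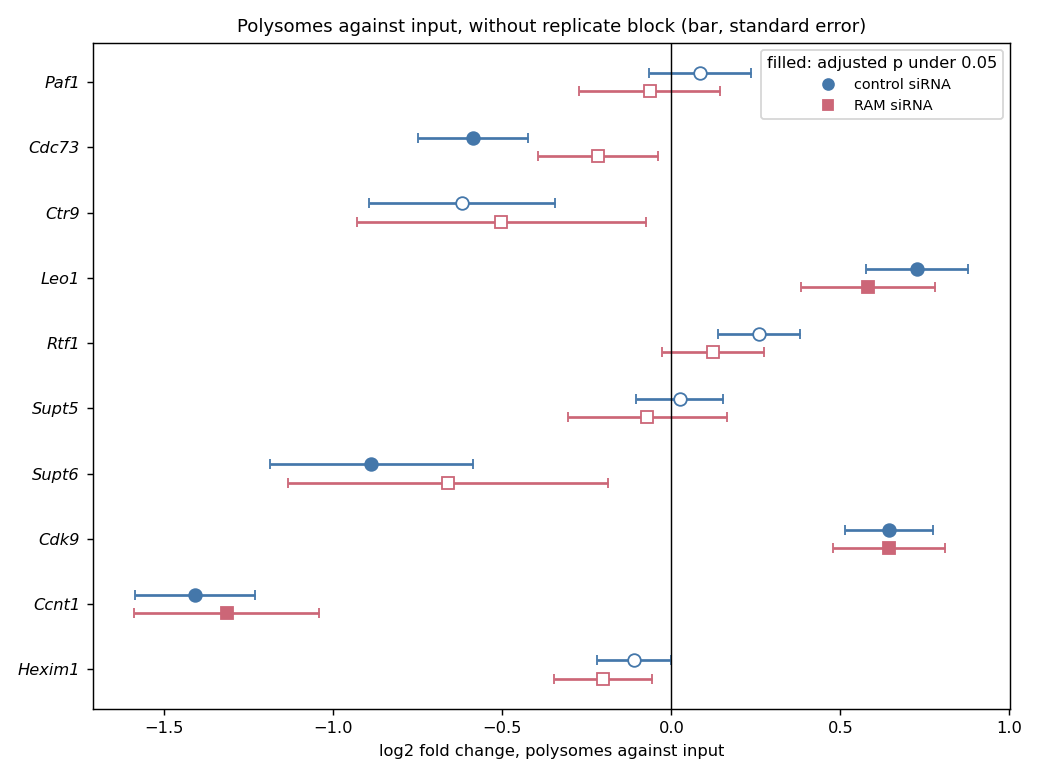
Log2 fold change of polysomes against input (x axis) for the 10 genes (y axis) in control (circles) and RAM siRNA cells (squares), fitted without a replicate block, with bars for the SE and filled symbols for an adjusted p under 0.05. Ccnt1 lies furthest left and Cdk9 and Leo1 furthest right under both siRNAs.

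In the Paf1 complex, Leo1 had 49.1, 51.2, 42.0 and 56.9 CPM in control inputs and 105.8, 92.9, 70.9 and 70.2 CPM in control polysomes, with no overlap. Its log2 fold change was 0.73 in control cells (SE 0.15, adjusted p = 0.00125) and 0.58 in RAM siRNA cells (SE 0.20, adjusted p = 0.0292, edgeR), where the groups overlapped. The call in RAM siRNA cells was lost with library-size scaling (0.46, adjusted p = 0.0704) and without input replicate 1, 2 or 3 or polysome replicate 1 (adjusted p between 0.0613 and 0.0874). Cdc73 was lower in control polysomes in 4 of 4 pairs (-0.59, SE 0.16, adjusted p = 0.00726), with 1 polysome library inside the range of the inputs. With RAM siRNA its value was -0.22 (SE 0.18, adjusted p = 0.324, edgeR), lower in 2 pairs and higher in 2. Paf1 lay near 0 under both siRNAs (0.08, SE 0.15, and -0.06, SE 0.21).

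In control cells Rtf1 and Ctr9 were not called without the block, and each was called in 5 of 15 alternatives, the block among them. The others were DESeq2, no filter, filterByExpr and the omission of polysome replicate 4 for Rtf1, and limma-voom, library-size scaling, no filter and the omission of polysome replicate 2 for Ctr9. Rtf1 was higher in control polysomes in 4 of 4 pairs, and its libraries did not overlap (0.26, SE 0.12, adjusted p = 0.0785, and 0.0490 with the block, edgeR). Ctr9 was lower in 3 of 4 pairs (-0.62, SE 0.27, adjusted p = 0.0642), and with the block the value was -0.74 (SE 0.23, adjusted p = 0.0184). Without control polysome replicate 2 it was -0.96 (adjusted p = 7.51e-04). In RAM siRNA cells Ctr9 was not called (-0.50, SE 0.43, adjusted p = 0.342), but without polysome replicate 2 it was -1.25 (adjusted p = 1.37e-04, edgeR), a move of over 1.5 times.

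Supt6 was lower in control polysomes in 4 of 4 pairs (-0.89, SE 0.30, adjusted p = 0.0207), a call lost without input replicate 2 (adjusted p = 0.0537) or without polysome replicate 4 (adjusted p = 0.0510, edgeR). In RAM siRNA cells it was lower in 3 of 4 pairs (-0.66, SE 0.47, adjusted p = 0.260), called with the block (-1.03, SE 0.33, adjusted p = 0.0287) and without polysome replicate 2 (-1.56, adjusted p = 1.16e-05). Supt5 lay near 0 in control cells (0.03, SE 0.13). In RAM siRNA cells it was -0.07 (SE 0.23), and -0.38 (adjusted p = 0.0285, edgeR) without polysome replicate 2. With that library left out, 6 of the 10 genes were called in RAM siRNA cells, in place of 3.

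**Figure D5:**
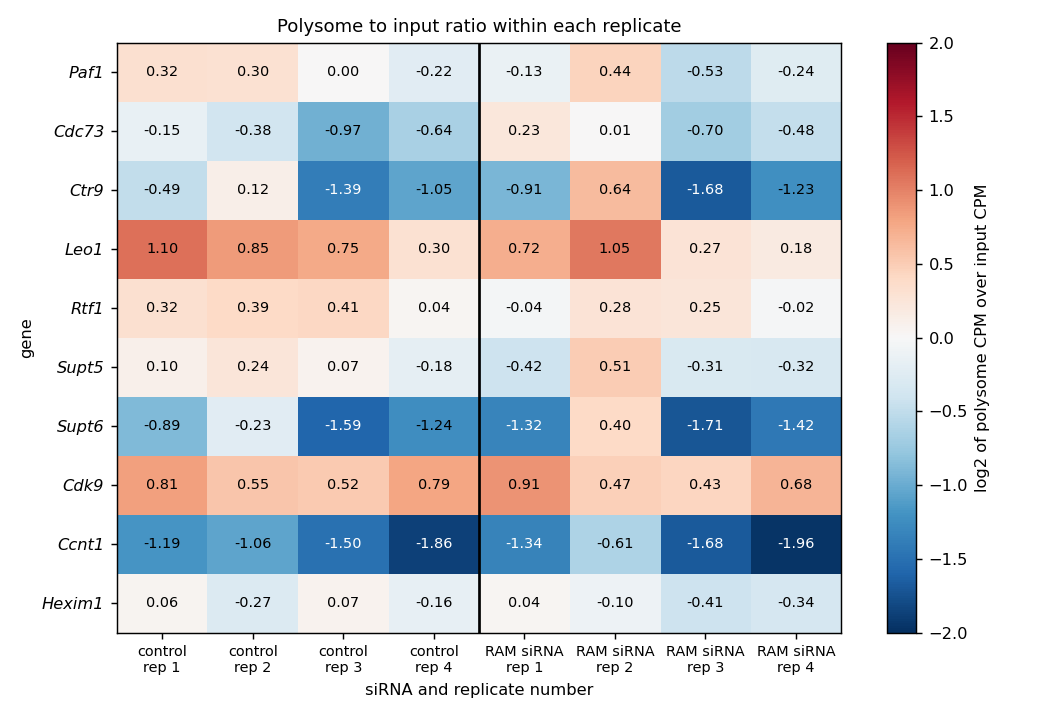
Log2 ratio of polysome CPM to input CPM within each replicate (8 columns, 4 for each siRNA) for the 10 genes (rows), with the value printed in each cell and colours from blue (lower in polysomes) to red (higher). Cdk9 and Leo1 are red and Ccnt1 blue in every column. Ctr9 is red in replicate 2 of control (0.12) and of RAM siRNA (0.64) only, and Supt6 in replicate 2 of RAM siRNA (0.40) only.

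Of the other elongation genes, 14 of 39 were higher and 18 lower in control polysomes, against 33.1% and 34.3% of all genes. In RAM siRNA polysomes 13 were higher and 10 lower, against 27.3% and 25.9% (median -0.22 and -0.21, against 0.00 and 0.04 over all genes tested). The largest rises under both siRNAs were Mnat1 (1.28 in control and 1.27 in RAM siRNA), Ccnh, the cyclin of Cdk7 (1.17 and 1.24), and Wdr61, a further subunit of the Paf1 complex (1.15 and 1.103). The largest falls in control cells were Ccnt2, the second T-type cyclin (-1.39), and the scaffolds of the super elongation complex Aff4 (-1.31) and Aff1 (-1.27). With RAM siRNA they were Mllt1 (-1.36), Ccnt2 (-1.35) and Eaf1 (-1.16). Both T-type cyclins were thus depleted from polysomes, as were 6 of the 7 genes of the super elongation complex tested in control cells and 5 of 7 in RAM siRNA cells, with 0 enriched under either siRNA. The 4 NELF genes were enriched under both siRNAs, by 0.63 to 0.89 in control cells for Nelfa (0.63), Nelfb (0.67), Nelfcd (0.74) and Nelfe (0.89). Supt4a, which encodes Spt4 and was listed with them, was not called (-0.20 in control and 0.09 in RAM siRNA cells). The other families of the list held genes called in both directions under both siRNAs.

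Last, the ratio of polysomes to input was compared between RAM siRNA and control in 1 fit over 16 libraries. Here too, a change common to all transcripts does not show. None of the 10 genes was called, against 0% of all genes tested (0 genes called and 100 at an unadjusted p under 0.05 by edgeR's quasi-likelihood test, and 1 called by DESeq2). With the block 0% were called as well, and with the block within each fraction 0.0156%, no member among them. The study reported a small number of genes whose loading depended on RAM, from a fit whose factors it does not name. Cdc73 had the largest value, 0.33 (SE 0.26), or 0.31 (SE 0.13, unadjusted p = 0.0282, adjusted p = 0.955) with the block within each fraction, and it was the only member at an unadjusted p under 0.05. The change of Paf1 was -0.19 (SE 0.28), of Leo1 -0.19 (SE 0.27), of Rtf1 -0.18 (SE 0.18), of Cdk9 -0.04 (SE 0.21) and of Ccnt1 0.05 (SE 0.35). SEs of 0.63 for Supt6 and 0.58 for Ctr9 meant that changes of that size on the log2 scale could not be detected in the fit without the block. That fit does not pair the libraries, so its SEs include the differences between replicates. This comparison shares all its libraries with those before it.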

How the data were processed

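RNA-seq libraries came from the input and the polysomes (fractions 17 to 22 of a sucrose gradient) of 46C ESCs treated with RAM siRNA or control, on 4 independent occasions. The labels and the study's methods describe the transfection reagent and amounts differently. Polysome RNA was extracted with phenol and chloroform and precipitated with lithium chloride, while Trizol was used for input RNA. Ribosomal RNA was removed before stranded library preparation. The authors mapped the reads to GRCm38 (mm10) with STAR 2.5.1b and deposited raw counts per gene from htseq-count, without normalization. Its strand and overlap settings and the annotation release are not given in the sources used here, so reads shared with overlapping or antisense genes cannot be assigned with certainty.

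Symbols matched 46488 of 46983 gene IDs. The 12805 genes that reached 1 CPM in 10 or more of the 16 libraries were tested with edgeR 4.0.16 in R 4.3.3 (TMM scaling, quasi-likelihood test, Benjamini-Hochberg adjustment over all genes tested, threshold 0.05). Comparisons of 2 groups used their 8 libraries, and the change of polysome loading used all 16. Standard errors were derived from the F statistic. Log2 CPM used a pseudocount of 0.5. The study's methods name edgeR but no factor for the replicate, so fits were made without and with it. In input, the block gave 2433 genes lower and 2595 higher, against 761 and 890 without it. The counts that the study reported were closer to those with the block. Over 9135 genes at 10 CPM or more, libraries with the same number deviated together from their group means under both siRNAs. Their r averaged 0.62 for input and 0.84 for polysomes (input with polysome, 0.40 in control and 0.46 in RAM siRNA), and every such pair was above 0.1. Between libraries of different number, r averaged -0.20 for input and -0.27 for polysomes. Some of these were high in polysomes: control replicate 1 had 0.645 with RAM siRNA replicate 2, against 0.625 with RAM siRNA replicate 1. Control replicate 4 had 0.44 with RAM siRNA replicate 3. The numbers were taken to pair the libraries, a pairing that only the fits with a block take into account.

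Alternatives were DESeq2 1.42.0, limma-voom (limma 3.58.1), RLE and library-size scaling, no filter, filterByExpr, the block and each library left out in turn. The omission of both replicate 2 polysome libraries, the transcript length and the ratios of 2 genes were chosen after seeing the data. The members, the list of other elongation genes and the tests were chosen with earlier results of these data known. All members are named in every comparison, and of the other elongation genes up to 3 rises and 3 falls past the threshold without the block or, failing that, with it, plus genes of a family described together. Gene positions, exon lengths, overlaps and 3′ UTRs (the longest of each gene) came from GENCODE M21. Words of 7 bases were counted on the transcript strand. Fits without the block were tested on simulated counts for RAM siRNA against control, in input and polysomes, and for the change of loading. The simulation took its spread from the input libraries and held no pairing of replicates. The other steps were not simulated. The table holds 0 columns of other samples.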

Additional observations from a re-analysis of the deposited data

Results flagged for a closer look

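In 4 of the 40 sets of 4 libraries (10 genes in 4 groups), 1 library stood apart from the others by Dixon's criterion, where chance alone picks out about 1 in 20 sets. Replicate 2 of RAM siRNA polysomes had 237.8 CPM of Supt6, against 62.0 CPM in the next library, a gap that took 0.887 of the range of the group. The same library had 179.4 CPM of Supt5, against 99.0 CPM in the next (0.858 of the range). It also had the highest level of Ctr9, which did not pass the criterion, and the comparisons that rest on this library are given with and without it above.

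In control input, replicate 3 had the lowest level of Ctr9, 84.0 CPM against 90.8 CPM in the next library (0.845 of the range). In RAM siRNA input, replicate 1 had the lowest level of Hexim1, 72.1 CPM against 87.2 CPM in the next, just past the criterion. Neither gene was called in input with or without any 1 library.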

How the results depend on the processing

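Over the alternatives tried, results for the 10 genes, Ramac and Rnmt kept their direction and side of the threshold in 158 of 180 cases in input, 161 of 192 in polysomes, 162 of 180 for polysomes against input in control, 163 of 180 in RAM siRNA and 267 of 300 for the change of loading. Cdc73 in input was past the threshold in 13 of 15. The values that reversed belonged to genes that were not called. The cause of these shifts was not tested.

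The replicate block raised the genes called from 1651 to 5028 in input and from 3 to 1875 in polysomes and the members called in input from 1 to 4. Beyond those calls and the ones given above it changed no other call of the 10 genes. In polysomes 300 genes were called by DESeq2, 39 with no filter, 18 with filterByExpr, and 1 without the replicate 2 polysome libraries of both groups. For the change of loading DESeq2 called 1 gene and the block within each fraction 2. With single libraries left out, the genes called ranged from 913 to 2506 in input and from 0 to 48 in polysomes, and the members called from 0 to 1 in input and from 2 to 6 for polysomes against input in RAM siRNA.

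Reversed log2 fold changes of RAM siRNA against control in polysomes were those of Cdk9 with DESeq2 (-0.0095), RLE scaling (-0.0093), filterByExpr (-0.022), library-size scaling (-0.049), limma-voom (-0.0018), no filter (-0.047) and the block (-0.0014), of Paf1 with library-size scaling (-0.014) and of Ctr9 with limma-voom (-0.0055). Without both replicate 2 polysome libraries they were those of Paf1 (-0.072), Ctr9 (-0.20) and Supt6 (-0.14). For the change of loading they were those of Ctr9 with limma-voom (-0.090), the block (-0.015) and the block within each fraction (-0.079), of Supt6 with limma-voom (-0.026) and the block within each fraction (-0.018), of Rnmt with the same (-0.0098 and -0.011), and of Cdk9 with filterByExpr (0.011) and no filter (0.031). Without both replicate 2 polysome libraries they were Ctr9 (-0.30), Supt6 (-0.28), Cdk9 (0.0035), Ccnt1 (-0.12) and Rnmt (-0.054). For polysomes against input in RAM siRNA, Paf1 and Supt5 reversed with filterByExpr (0.014 and 0.0080) and no filter (0.066 and 0.061), and in control Paf1 and Supt5 reversed with library-size scaling (-0.0051 and -0.064) and Hexim1 with no filter (0.030).

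With each library left out in turn, the log2 fold changes in input ranged from -0.10 to 0.0016 for Hexim1, from -0.011 to 0.15 for Supt6, from -0.11 to 0.063 for Leo1 and from -0.074 to 0.034 for Cdk9. In polysomes they ranged from -0.17 to 0.18 for Paf1, from -0.56 to 0.53 for Ctr9, from -0.57 to 0.75 for Supt6, from -0.30 to 0.17 for Ccnt1 and from -0.10 to 0.078 for Cdk9. For the change of loading they ranged from -0.66 to 0.45 for Ctr9, from -0.71 to 0.63 for Supt6, from -0.25 to 0.25 for Ccnt1, from -0.15 to 0.17 for Rnmt and from -0.13 to 0.089 for Cdk9. For polysomes against input they ranged from -0.31 to 0.066 for Paf1 and from -0.38 to 0.035 for Supt5 in RAM siRNA, and from -0.052 to 0.0999 for Supt5 in control. Every member had at least 306 counts in each library, and the spread between polysome libraries, with an SD of log2 CPM of up to 1.13, limits what these comparisons can detect.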
